A study of Mus musculus with 8 samples.

Results

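Stathmin and the tubulins were described in lumbar spinal cord microglia: Stmn1, which encodes stathmin, and 8 tubulin genes, the alpha tubulins Tuba1a, Tuba1b and Tuba1c, the beta tubulins Tubb2a, Tubb4b, Tubb5 and Tubb6, and the gamma tubulin Tubg1. The 9 genes were 9 of the 27998 in the deposited gene table and were found there by symbol. They had been chosen by their levels in these same libraries, inside and outside cells with UMIs of the division genes Mki67 or Top2a, so those values are a description and no test was made on them. A UMI (unique molecular identifier) marks 1 captured RNA molecule.

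Microtubules are hollow polymers of alpha and beta tubulin dimers. They carry transport and shape the processes of resting microglia, and in mitosis they are rebuilt into the spindle. Gamma tubulin nucleates them at the centrosome, and stathmin, encoded by Stmn1, binds free dimers and promotes microtubule disassembly until it is phosphorylated in mitosis. Tubulin isotypes are near-identical proteins from separate genes, and cells also adjust tubulin mRNA to the pool of free dimers, a control called autoregulation.

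Single-cell RNA-seq was done on YFP-positive microglia sorted from the lumbar cord of C57BL/6 mice, to compare uninjured cord with days 1, 2 and 3 after bilateral sciatic nerve transection in 2 genotypes. All animals carried Cx3cr1-yfp-creER/+, which places YFP and a tamoxifen-inducible Cre at the Cx3cr1 locus, a gene of microglia and related myeloid cells. The 4 control libraries (naive, day 1, day 2, day 3) came from animals with this allele alone, and the 4 A20 cKO libraries came from animals that also carried Tnfaip3 fl/fl, the floxed gene of the NF-kappaB inhibitor A20. Each of the 8 groups was thus a single library made from a pool of animals, and the spread between animals is unknown. All intervals below are 95% intervals of counting error alone, and 1 pool against another cannot separate the condition from the pool.

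After a cell filter (at least 1000 UMIs and 500 genes, at most 10% mitochondrial UMIs) 14626 of 14883 barcodes were kept, from 558 to 3585 cells per library with median depths of 2780 to 4274 UMIs. All 7 microglia markers were detected in every library, with a summed level of 11339 to 23570 UMIs of a gene per 1000000 UMIs (CPM). Control day 3 and the 4 A20 cKO libraries stood apart from the other 3. They shared 117 cell barcodes over their 10 pairs, 6.40 per 1000000 possible cell pairs, against 1.70 among the other 3 libraries. They also held 130.6 to 414 CPM of 3 choroid plexus and ependyma markers against at most 0.213 CPM (Ttr at 0), 18.5 to 32.0 CPM of 2 neutrophil markers against 0, and 218 to 286 CPM of 6 oligodendrocyte markers against 137 to 149 CPM. The 5 astrocyte markers summed to 8.23 to 26.7 CPM against 2.21 to 3.29 CPM. The 4 endothelial markers did not split this way, with naive control the highest at 51.2 CPM. The part of this division of libraries in the results was not tested, and apart from control day 3 it cannot be told apart from the genotype. Tnfaip3, the targeted gene, was at 6.83 to 25.3 CPM in the control libraries and at 42.3 to 67.7 CPM in the A20 cKO libraries. Which exons the floxed allele loses is not given in the sources used here, so these 3′ UMIs do not check the deletion, and the genotypes below are those of the labels.

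The genes lie on 7 chromosomes of the mouse build GRCm38 (GENCODE M21). Tuba1b (chr15:98931425-98934565, minus strand), Tuba1a (chr15:98949837-98953703, minus strand) and Tuba1c (chr15:99029891-99038110, plus strand) sit together within 106.686 kb. Stmn1 is at chr4:134468320-134473843 (plus), Tubb2a at chr13:34074274-34078007 (minus), Tubb4b at chr2:25222160-25224702 (minus), Tubb5 at chr17:35833921-35838306 (minus) and Tubg1 at chr11:101119938-101126419 (plus). The 3 neighbours on chromosome 15 are also near-copies. Of all 91-base words (the length of the cDNA read) in the last 500 bases of their transcripts, 52.0% for Tuba1a, 60.0% for Tuba1b and 64.9% for Tuba1c occurred in another annotated gene too, as did 25.3% for Stmn1, 25.1% for Tubb2a and 12.2% for Tubb4b. Where both genes are in the annotation used for counting, reads from such stretches cannot be placed on 1 gene. For Stmn1 the only other gene was Gm11223, and for Tubb4b these were Gm16165 and Tubb4b-ps1. The Tuba1 genes shared words with each other and with further loci such as Gm14150. Whether the Gm loci and Tubb4b-ps1 were counted was not checked. The levels of the 6 genes with shared words are thus uncertain by an amount not given by the files. For Tubb5, Tubb6 and Tubg1 no word was shared.

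The promoters of 3 beta tubulins are shown because the genes differed in the data below: Tubb5 was higher in cells with division UMIs in all 7 libraries with enough such cells, Tubb4b in 6 of them (not control day 1, at 53.3 against 68.1 CPM) and Tubb2a in none. RefSeq promoters (GRCm38.p6, 250 bases before to 50 bases after the transcription start) were used for 6 of the 9 genes, without Stmn1, Tubb6 and Tubg1. Both strands were searched for the CCAAT box bound by NF-Y, for the core of the cell cycle homology region of many G2/M promoters, TTTGAA, and for the TATA box in its form TATAAA. The E2F-like letters GGCGGGAA were also searched, as were 2 other such forms, first TTTGGCGC and then the form TTTCGCGC. Capitals mark the CCAAT box, the cell cycle core and the TATA box, which do not overlap here, and each sequence is read 5′ to 3′ on the strand of its gene.
Tubb4b promoter, chr2:25224653-25224952, minus strand: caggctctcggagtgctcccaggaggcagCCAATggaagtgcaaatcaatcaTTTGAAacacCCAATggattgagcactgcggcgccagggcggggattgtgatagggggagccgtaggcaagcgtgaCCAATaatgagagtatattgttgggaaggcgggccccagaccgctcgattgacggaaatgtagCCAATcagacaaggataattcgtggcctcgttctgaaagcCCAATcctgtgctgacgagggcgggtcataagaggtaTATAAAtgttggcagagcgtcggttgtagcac
Tubb5 promoter, chr17:35838252-35838551, minus strand: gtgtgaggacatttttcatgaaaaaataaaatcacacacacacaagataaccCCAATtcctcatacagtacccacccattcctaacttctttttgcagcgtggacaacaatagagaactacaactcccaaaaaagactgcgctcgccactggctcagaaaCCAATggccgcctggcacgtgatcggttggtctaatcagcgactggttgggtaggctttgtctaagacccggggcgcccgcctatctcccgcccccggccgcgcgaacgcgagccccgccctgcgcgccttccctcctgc
Tubb2a promoter, chr13:34077959-34078258, minus strand: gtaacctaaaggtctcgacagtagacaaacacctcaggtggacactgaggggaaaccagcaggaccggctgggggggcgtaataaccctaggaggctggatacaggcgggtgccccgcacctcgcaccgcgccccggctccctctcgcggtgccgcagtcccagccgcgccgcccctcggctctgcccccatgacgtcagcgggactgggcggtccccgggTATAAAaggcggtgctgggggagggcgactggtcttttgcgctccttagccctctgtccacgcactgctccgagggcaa
Tubb4b held 5 CCAAT boxes, beginning at -221, -188, -122, -59 and -19 from the start, TTTGAA at -198 and TATAAA at 19 past the start. At least 5 CCAAT boxes occurred in 0.271% of all 32851 promoters of this length, and at least 1 in 37.4%. Tubb5 held 2, at -198 and -90, which 11.7% of all promoters reached. Tubb2a held none in this window, and it held TATAAA at -29. TATAAA was present in 13.6% of all promoters. The alpha tubulins did not divide this way: Tuba1a and Tuba1c held 1 CCAAT box each, at -176 and -151, and Tuba1b held none. The 3 E2F-like motifs were in none of the 6 windows and in 2.19%, 0.514% and 0.323% of all promoters. TTTGAA occurred in 17.9% of all promoters. These are matches of letters and not sites shown to be bound.

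Across the 8 libraries the genes fell into different courses. After injury in control animals, 6 of the 9 (Stmn1, Tuba1b, Tuba1c, Tubb4b, Tubb5 and Tubg1) had their highest level on day 2, and the other 3 (Tuba1a, Tubb2a and Tubb6) on day 1. No gene was highest in an A20 cKO library.

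**Figure D1:**
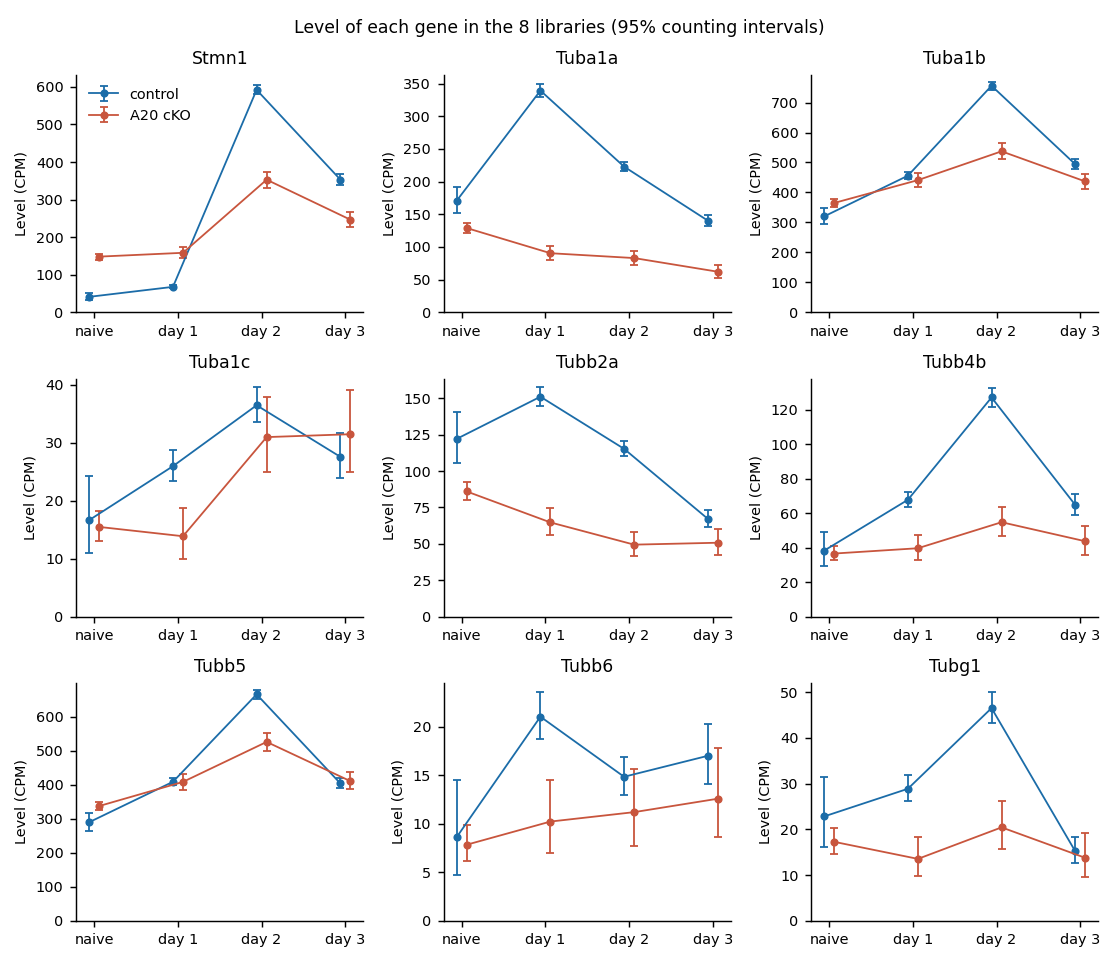
CPM (y axis, linear from 0) of each of the 9 genes at naive and days 1 to 3 after injury (x axis), with 1 point per library and bars for 95% counting intervals. Stmn1 in control libraries went from 41.3 CPM in naive to 592 CPM on day 2, while Tuba1a was highest on day 1 at 339 CPM and lower in every A20 cKO library than in any control library.

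Stmn1 had the widest range. Its level was 41.3 CPM in the naive control library and then 67.9, 592 and 354 CPM on days 1, 2 and 3. In A20 cKO libraries it was 148, 159, 353 and 247 CPM at the same times. Control day 2 was 14.3 times control naive, the largest span of the 9 genes, and the naive A20 cKO library lay above both the naive and the day 1 control libraries. Thinned to 2000 UMIs per cell, 6.77% of naive control cells and 11.9%, 59.4% and 34.4% on the days after injury held a Stmn1 UMI, and 16.2%, 14.5%, 28.9% and 18.4% of A20 cKO cells did. At full depth 9.15%, 21.7%, 78.5% and 43.1% of control cells did, and 20.8%, 21.3%, 43.0% and 29.9% of A20 cKO cells. No cell type in these sorts was known to lack Stmn1, so the share that free RNA alone would give was not tested.

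The alpha tubulin Tuba1b, the most abundant member, stood at 320.3, 456, 756 and 494 CPM in the control libraries and at 365, 441, 537 and 437 CPM in the A20 cKO libraries. Day 2 was the highest time point in both genotypes. Tuba1a, an isotype best known from neurons, ran otherwise: 171, 339, 223 and 140.4 CPM over the control series and 129, 90.5, 83.1 and 62.2 CPM over the A20 cKO series. Its log2 ratio to naive on control day 1 was 0.99 (0.81 to 1.17), and it was lower in each later A20 cKO library than in the naive one. Tuba1c was low, at 16.7, 26.0, 36.5 and 27.6 CPM over the control series and 15.5, 13.9, 31.0 and 31.5 CPM over the A20 cKO series.

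Among the beta tubulins, Tubb5, the isotype of most dividing cells, followed Tuba1b, at 290.0, 409, 666 and 404 CPM over the control series and 338, 408, 526 and 411 CPM over the A20 cKO series. Tubb4b stood at 38.3, 67.7, 127 and 64.8 CPM over the control series and 36.6, 39.6, 54.7 and 43.7 CPM over the A20 cKO series. Day 2 was the highest time point of both series, at a lower level in A20 cKO. Tubb2a followed Tuba1a and not Tubb5, at 122, 151, 115 and 67.2 CPM over the control series and 86.0, 64.7, 49.4 and 50.8 CPM over the A20 cKO series.

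Tubb6 was the lowest of the 9, at 8.64, 21.1, 14.9 and 17.0 CPM over the control series and 7.85, 10.2, 11.2 and 12.6 CPM over the A20 cKO series, the naive control value resting on 14 UMIs. Tubg1 stood at 22.8, 28.9, 46.5 and 15.2 CPM over the control series and 17.3, 13.5, 20.4 and 13.8 CPM over the A20 cKO series. Gamma tubulin thus also peaked on control day 2 and was lower on day 3 than in naive control, a pair across the division of libraries.

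Against control naive, 1 of the 9 genes was at least 2-fold higher on day 1 (Tubb6, log2 ratio 1.29), 6 on day 2 and 1 on day 3 (Stmn1, 3.10). Over all genes with at least 100 UMIs in both libraries together, 4.14%, 6.21% and 9.24% passed the same fold. The day 2 ratios were 3.84 for Stmn1 (3.49 to 4.21), 1.73 for Tubb4b (1.37 to 2.12), 1.24 for Tuba1b, 1.20 for Tubb5, 1.13 for Tuba1c and 1.03 for Tubg1 (0.55 to 1.54), on the log2 scale. The other 3 were at 0.78 for Tubb6, 0.38 for Tuba1a and -0.08 for Tubb2a (-0.30 to 0.14). The naive control library was the smaller of the pair, with 568 cells. Against control day 1 in its place, 1 gene passed on day 2 (Stmn1, 3.13; 3.83% of all genes), and Tuba1a (-0.61), Tubb6 (-0.50) and Tubb2a (-0.39) were lower. From control day 2 to day 3 no member passed the fold upward (13.1% of all genes did) and 1 passed it downward (Tubg1, -1.61; 2.74% of all genes). That pair and control day 3 against control naive both lie across the division of libraries described above. The median gene differed by 0.14 between control days 2 and 3.

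The A20 cKO libraries were set against their own naive library. None of the 9 passed the fold on day 1 (1.56% of all genes), 2 passed on day 2 (Stmn1, 1.25, and Tuba1c, 1.00; 2.84%) and 1 on day 3 (Tuba1c, 1.02; 1.91%). Tuba1c lay at the threshold on both days, with an interval of 0.61 to 1.39 on day 2. On day 3 Tuba1a passed the fold downward (-1.05, -1.30 to -0.81; 2.16% of all genes). Tuba1b and Tubb5 were at 0.56 and 0.64 on day 2. The median gene stood at -0.12 on control day 1, -0.10 on control day 2 and -0.11 on A20 cKO day 3, each against its naive library. Relative to it, upward log2 ratios are stronger and downward ones weaker by that amount. Tuba1a on A20 cKO day 3 then falls short of the fold.

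Between genotypes without injury, Stmn1 was at least 2-fold higher in the naive A20 cKO library than in naive control (1.84, 1.49 to 2.22), the only member of 8 with enough UMIs, against 8.02% of all genes. Tubb2a (-0.51) and Tuba1a (-0.41) were lower in A20 cKO with intervals below 0. This naive pair also lies across the division of libraries. On day 3, a pair within the same division of libraries, no member was 2-fold higher in A20 cKO (1.86% of all genes) and 1 was 2-fold lower (Tuba1a, -1.18, -1.43 to -0.93; 2.53%). Stmn1 was at -0.52, Tubb4b at -0.57 and Tubb5 at 0.02 in that pair.

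Cells with at least 1 UMI of Mki67, a marker of cycling cells, or Top2a, the DNA topoisomerase of dividing cells, are called Mki67/Top2a+ here, and the rest Mki67/Top2a-. The former were 3 of 568, 64 of 3323, 1675 of 3585 and 449 of 2117 cells over the control series, or 0.528%, 1.93%, 46.7% and 21.2%. In A20 cKO they were 190 of 2922, 75 of 886, 184 of 667 and 90 of 558, or 6.50%, 8.47%, 27.6% and 16.1%. These cells were also deeper, with medians of 4635 against 3552.5 UMIs on control day 2. The naive control class held too few cells for a ratio.

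Among libraries with at least 20 Mki67/Top2a+ cells, Stmn1 in those cells stayed within 749 to 870.3 CPM in all but control day 1. It was at 749 CPM (731 to 768) on control day 2 and 792 CPM on control day 3. In the A20 cKO libraries from naive to day 3 it was at 819, 793, 775 and 870.3 CPM. The interval of the last, 792 to 954, did not overlap that of control day 2. Control day 1 lay lower, at 233 CPM in 64 such cells, while A20 cKO days 1 and 3 had 75 and 90 such cells. In Mki67/Top2a- cells the level differed far more, at 37.3, 63.6, 403 and 193 CPM over the control series and 81.0, 76.1, 118 and 84.8 CPM over the A20 cKO series. The log2 ratio between the classes was therefore 0.90 (0.83 to 0.96) on control day 2 and 2.03 on control day 3, and 3.34, 3.38, 2.72 and 3.36 in A20 cKO.

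**Figure D2:**
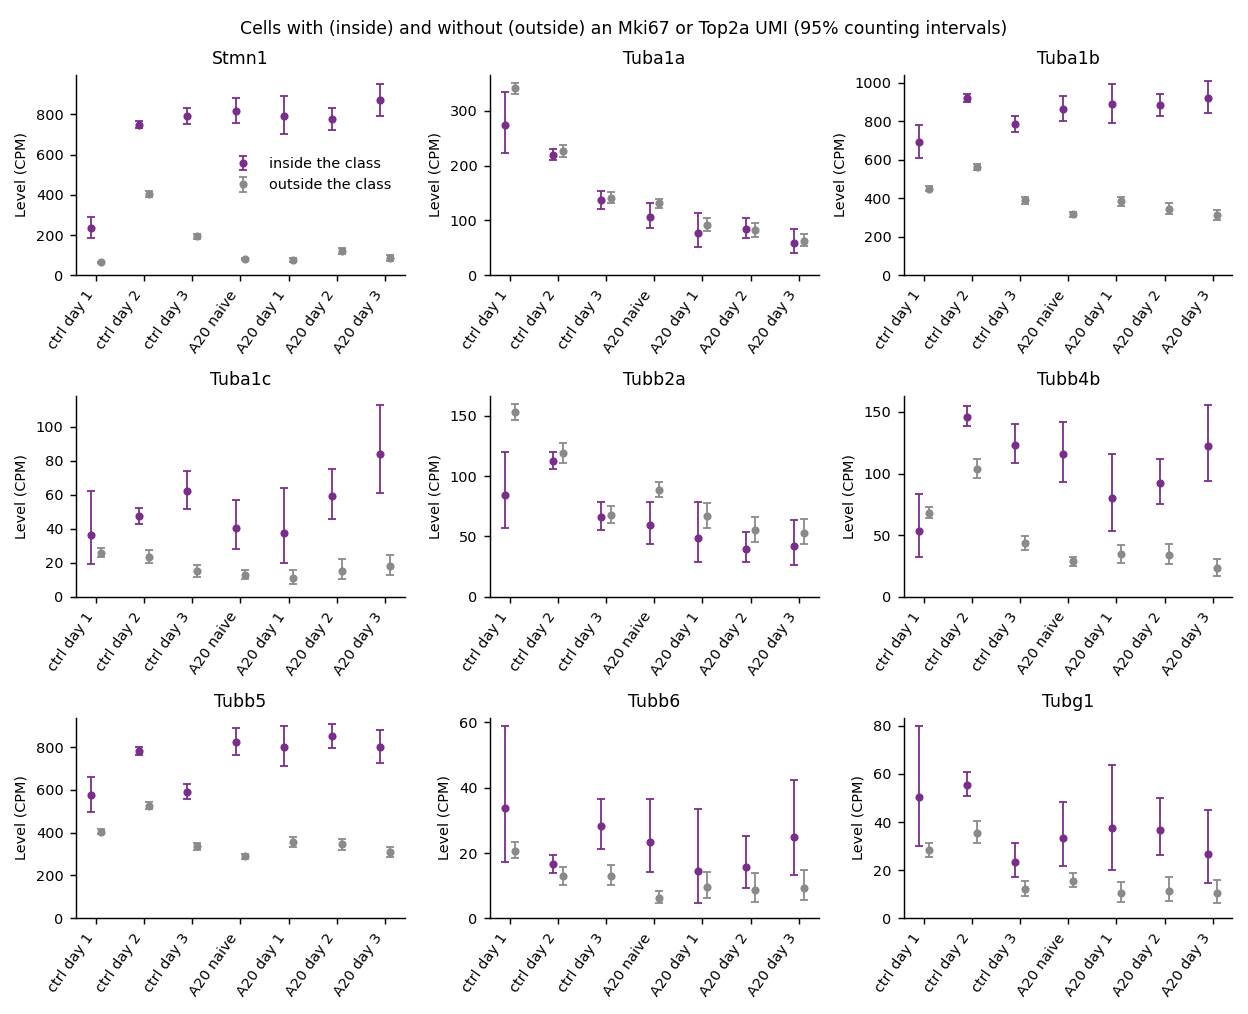
CPM (y axes, linear from 0) in cells with (purple) and without (grey) an Mki67 or Top2a UMI for the 7 libraries with at least 20 such cells, bars showing 95% counting intervals. Stmn1 in purple sits at 749 to 870.3 CPM in all libraries but control day 1, and the grey point of control day 2, at 403 CPM, is the highest of its kind.

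The members divided into those that were higher in Mki67/Top2a+ cells and those that were not. At least 2-fold higher were 1 of 9 on control day 1 (Stmn1; 2.34% of all genes), 1 of 9 on control day 2 (Tuba1c, 1.02; 2.14%) and 5 of 9 on control day 3 (Stmn1, Tuba1c, Tubb4b, Tubb6 and Tuba1b; 2.97%). In A20 cKO they were 6 of 8 in naive (3.32%), 4 of 6 on day 1 (1.9%), 4 of 6 on day 2 (3.39%) and 4 of 6 on day 3 (2.43%), counting members with at least 100 UMIs. The 4 on each injured day were Stmn1, Tuba1b, Tubb4b and Tubb5, and Tuba1c and Tubg1 joined them in naive. Tubb4b was at log2 ratios of 2.01 in naive and 2.39 on day 3, and Tuba1b and Tubb5 lay between 1.16 and 1.56 in all 4.

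Tuba1a and Tubb2a were in no library 2-fold higher in these cells. Tuba1a lay between -0.31 and 0.05, at 220 against 226 CPM on control day 2 and at 84.8 against 82.1 CPM on A20 cKO day 2. Tubb2a lay between -0.86 and -0.03, at 112 against 119 CPM on control day 2 and at 59.1 against 88.7 CPM in naive A20 cKO. For both genes the libraries differed more than the classes did.

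For Stmn1 the contrast between the classes was weakest on control day 2. For Tuba1b, Tubb5, Tuba1c and Tubb4b it was lowest on control day 1, at log2 ratios of 0.62, 0.51, 0.51 and -0.35. These rest on 246, 205, 13 and 19 UMIs in the 64 positive cells, the last ratio with an interval of -1.09 to 0.30. Control day 2 could be close to it: Tuba1b was at 918 against 561 CPM there, and at 690 against 450 CPM on day 1. The median log2 ratio of the spindle microtubule proteins tested, among them the kinesins and Tpx2, was 1.64 on control day 2 (16 genes), 3.89 on control day 3 (14 genes) and 4.91 on A20 cKO day 2 (8 genes). Mki67 in Mki67/Top2a+ cells was at 64.5 CPM on control day 1, 169 CPM on control day 2, 574 CPM on control day 3 and 753 CPM on A20 cKO day 2. How far division UMIs were missed in negative cells, or came from free RNA in positive ones, was not tested.

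The injury course was then read in Mki67/Top2a- cells alone. On control day 2 against naive, 2 of 9 members were at least 2-fold higher (Stmn1, 3.43, 3.07 to 3.83, and Tubb4b, 1.43; 3.13% of all genes), with Tubb5 at 0.87 and Tuba1b at 0.82. On A20 cKO day 2 none of the 8 tested passed (1.33%), and Stmn1 was at 0.54 (0.32 to 0.76). Of the 18 core G2/M genes, 11 could be tested in this class on control day 2 against naive. These 11 were high there too, all past the fold, with a median of 4.54. Genes this far up meet the UMI minimum mainly through their day 2 UMIs. The count of 11 of 11 was therefore largely set by the filter, and it says nothing of the core G2/M genes left untested. A narrower set held only cells without a UMI of Mki67, Top2a or any of 12 core S and 18 core G2/M genes, 6.00% of cells on control day 2 and 67.8% in naive. There Stmn1 was at 39.3, 48.6, 329 and 134 CPM over the control series and 64.1, 43.7, 93.7 and 43.1 CPM over the A20 cKO series. Control day 2 was again the highest, with a log2 ratio to naive of 3.07 (2.58 to 3.58). Tubb4b was at 29.0 and 128 CPM in the naive and day 2 control cells of this set, and Tuba1b at 323 and 487 CPM.

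**Figure D3:**
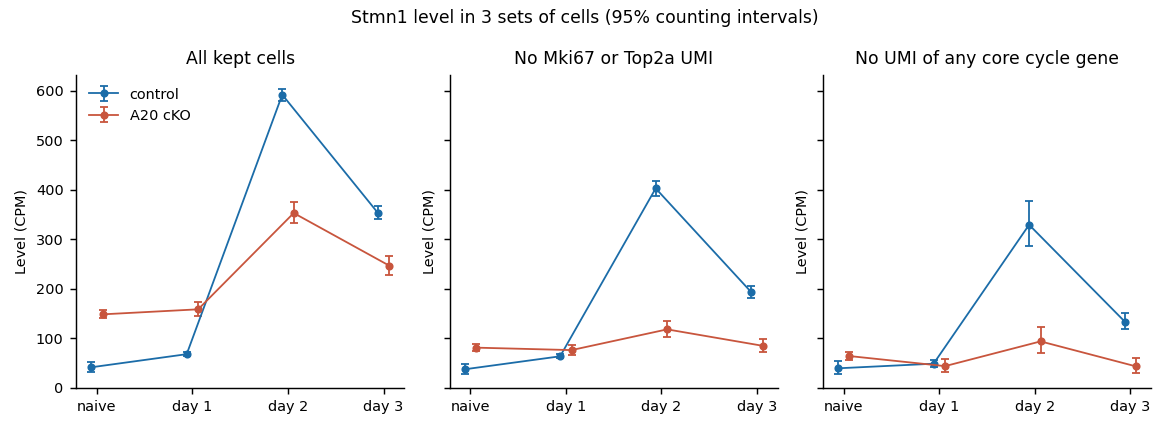
Stmn1 in CPM (shared y axis, linear from 0) by time in all kept cells, in cells without an Mki67 or Top2a UMI and in cells without a UMI of any core cycle gene, with 1 point per library and 95% counting intervals. Control day 2 is highest in all 3 panels, at 592, 403 and 329 CPM, while the A20 cKO points of the other 2 sets stay at or under 118 CPM.

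The share of a gene's UMIs that came from Mki67/Top2a+ cells restates the ratios between the classes, since both rest on the same sums. On control day 2 these cells held 54.6% of all UMIs, 69.1% of the Stmn1 UMIs and 70.9% of the Tuba1c UMIs, but 53.9% of the Tuba1a and 53.2% of the Tubb2a UMIs. In naive A20 cKO they held 9.11% of all UMIs, 50.3% of the Stmn1, 28.8% of the Tubb4b, 22.2% of the Tubb5 and 21.5% of the Tuba1b UMIs. Tuba1a and Tubb2a gave 7.57% and 6.26% there, below the share of all UMIs.

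Phase was read from UMIs of core genes: core G2/M cells had UMIs of at least 3 of 18 G2/M genes, and core S cells at least 3 of 12 S genes and fewer than 3 G2/M genes. Stmn1 was higher in core G2/M than in core S cells in 6 of 6 libraries (control days 2 and 3 and all A20 cKO). In core G2/M cells it was at 919 and 1296 CPM on control days 2 and 3 and at 1308, 1574, 1139 and 1208 CPM in the A20 cKO libraries. Control day 2 was the lowest of these (894 to 944), below the interval of A20 cKO day 2 (1059 to 1225). In core S cells the values were 545 and 377 CPM on control days 2 and 3 and 344, 275, 221 and 385 CPM over the A20 cKO series. Control day 1 is not among these 6 libraries and held 5 core G2/M cells. Its 373 core S cells had a lower Stmn1 level, at 119 CPM (105 to 135). In cells of neither class the values were 372 and 191 CPM, and 74.6, 63.2, 126 and 72.2 CPM. Cells of neither class could still be Mki67/Top2a+: 737 of 2140 were on control day 2 and 242 of 1793 on control day 3. In A20 cKO 85 of 2729, 31 of 770, 76 of 511 and 29 of 460 were. Core S cells thus lay between the other 2 classes in all 6 libraries.

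Tuba1b had the same order, at 1105 to 1371 CPM in core G2/M, 516 to 718 CPM in core S and 285 to 516 CPM in neither, over the same 6 libraries. Tubb4b differed from it in S phase. It was at 134 to 205 CPM in core G2/M, but core S cells had no constant place against the cells of neither class. On A20 cKO day 3 core S was higher, at 47.7 CPM (26.1 to 80.1) against 18.1 CPM (12.6 to 25.1), on A20 cKO day 2 it was at 17.2 against 35.8 CPM, and on control day 2 at 104 against 96.7 CPM, the last 2 pairs with overlapping intervals. Tuba1c was alike, at 59.9 to 123 CPM in core G2/M and 12.2 to 27.2 CPM in core S. Tuba1a on control day 2 was at 222, 226 and 222 CPM in core G2/M, core S and neither, and the 3 intervals overlapped. In naive A20 cKO it was lower in core G2/M, at 85.8 CPM (60.4 to 118), than in neither, at 133 CPM (125 to 141), and on A20 cKO day 1 it was at 45.0, 73.0 and 95.8 CPM in the same order. These classes were cut from UMIs of other genes in the same cells, and core G2/M cells were few on A20 cKO day 1 (25 cells) and day 3 (47 cells).

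**Figure D4:**
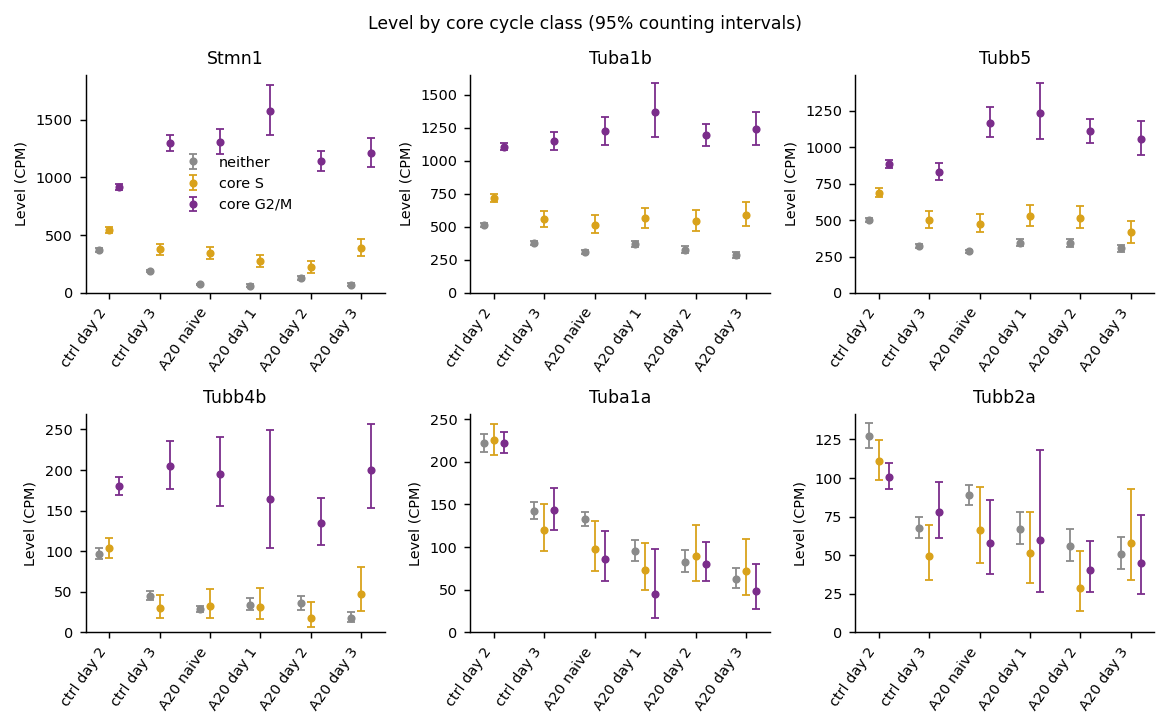
CPM (y axes, linear from 0) of 6 members in core G2/M (purple), core S (yellow) and other (grey) cells of control days 2 and 3 and the 4 A20 cKO libraries, with 95% counting intervals. Stmn1, Tuba1b, Tubb5 and Tubb4b are highest in core G2/M cells in all 6 libraries, Stmn1 at 919 to 1574 CPM, while Tuba1a on control day 2 sits at 222 to 226 CPM in every class.

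Levels were also read by the number of division UMIs in cells thinned to 2000 UMIs. On control day 2 Stmn1 was at 431, 546, 943 and 1331 CPM in cells with 0, 1, 2 or 3, and at least 4 UMIs of Mki67 and Top2a (2437, 697, 272 and 74 cells). On control day 3 it was at 202, 402, 892 and 1595 CPM over the same steps. Tubb5 on control day 2 was at 551, 603, 937 and 1236 CPM, and Tuba1a at 214, 212, 186 and 203 CPM. Stmn1 and Tubb5 were thus higher at each step on control day 2, and Tuba1a was not. On A20 cKO day 2 Stmn1 was at 117, 307, 1360 and 1170 CPM, lower at the last step with overlapping intervals, in 497, 57, 25 and 47 cells. In the naive A20 cKO library it was at 83.1, 356, 880 and 1744 CPM.

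Since a 3′ UMI counts a molecule once whatever its length, the isotypes can be set against each other within a library. Tuba1b made up 62.8%, 55.3%, 74.1% and 74.3% of the alpha tubulin UMIs in the control libraries from naive to day 3, and 71.1%, 80.2%, 82.0% and 81.3% in A20 cKO. Tuba1a took 33.5%, 41.1%, 21.8% and 21.1%, and 25.1%, 16.4%, 12.7% and 11.6%. The share of Tuba1a was highest on control day 1 and lowest on A20 cKO day 3. Shared 3′ sequence, given above for this pair, could move these shares.

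The beta tubulins differed in a similar way. Tubb5 made up 58.3%, 57.5%, 68.2% and 68.1% of the beta UMIs in control and 67.4%, 73.0%, 79.6% and 76.0% in A20 cKO. Tubb2a made up 24.6% in naive control and 11.3% on control day 3, and 17.2% in naive A20 cKO and 7.48% on A20 cKO day 2. Tubb4b stayed between 7.08% and 13.0%, highest on control day 2. The neuronal isotype Tubb3 had 10 UMIs in all libraries together, against 26585 for Tubb5.

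**Figure D5:**
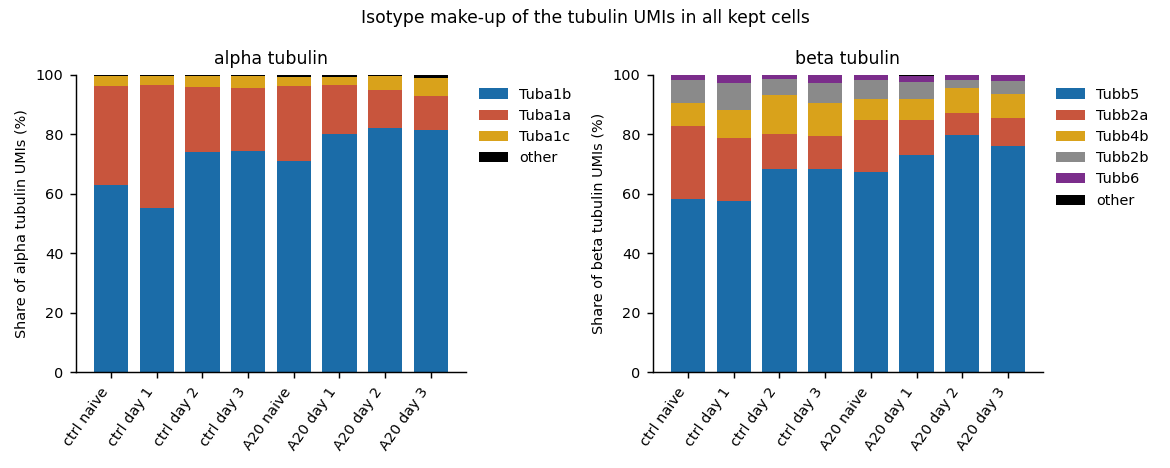
Stacked shares (y axis, percent, 0 to 100) of each isotype in the alpha (left) and beta (right) tubulin UMIs of all kept cells in the 8 libraries (x axis). The blue Tuba1b and Tubb5 segments are smallest on control day 1, at 55.3% and 57.5%, and largest on A20 cKO day 2, at 82.0% and 79.6%.

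In total the 2 families kept pace. Alpha tubulin UMIs per beta tubulin UMI lay between 0.98 and 1.16 in the 8 libraries, while the alpha sum went from 510.3 CPM in naive control to 1021 CPM on control day 2. Stmn1 differed more: the libraries held 24.4 tubulin UMIs per Stmn1 UMI in naive control and 22.6, 3.37 and 3.56 on the days after injury, against 6.84, 7.0, 3.73 and 4.37 in A20 cKO. Within cells, Tuba1b made up 85.8% of alpha UMIs in Mki67/Top2a+ and 77.3% in Mki67/Top2a- cells of A20 cKO day 2, and 77.1% and 68.8% on control day 2.

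The genes whose course over the 8 libraries lay nearest were found by the root mean square (RMS) difference of log2 CPM, each centred on its mean, among 10403 genes. Tuba1b and Tubb5 were each other's nearest gene, at 0.07, ahead of Hmgn1, a nucleosome-binding protein gene, for both. Nearest to Stmn1 were Ncapd2 (0.26), a condensin subunit, the cyclin gene Ccne2 (0.28), Arhgef39 (0.30), Rad51ap1 (0.32), of DNA repair, and Tcf19 (0.33). Nearest to Tuba1a were Rac3, Fam212a and Fam110a (each 0.27), Slc35b2 and Tgif2 (each 0.28), and Tubb2a came next, at 0.29. Stmn1 and Tuba1a were 1.61 apart. With 8 points that share depth and pools, this likeness is a description.

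Other genes of the microtubule system were counted from lists, with the same fold on control day 2 against naive. Of the spindle proteins, 15 of 16 tested were at least 2-fold higher, with a median of 4.50. Among them was Prc1, which bundles spindle midzone microtubules, at 5.37 (3.52 to 8.42). Genes were tested only with at least 100 UMIs in both libraries together, and genes this far up reach that number mainly through day 2. The spindle count was therefore largely set by the filter and cannot be set against the lists that follow. Of the 19 folding genes (the CCT chaperonin, prefoldins and tubulin cofactors), 2 passed, Cct7 (1.02) and Tcp1 (1.01), and the median was 0.44. Both lay at the threshold, and 6.21% of all genes tested in this pair passed it. None of 10 genes of the gamma tubulin ring complex, 16 of interphase microtubule proteins, 9 of tubulin modification and 16 actin genes passed upward. Their medians were 0.16, -0.11, 0.21 and 0.27, beside -0.10 over all genes. Of the autoregulation genes, Ttc5, which binds nascent tubulin and marks its mRNA for decay, was lower, at -0.96 (-1.27 to -0.64), while Scaper and Cnot11, which link it to the deadenylase complex, were at -0.16 and 0.08 with intervals that included 0.

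The same lists and filter were used for A20 cKO day 2 against naive. In that pair 13 of 13 tested spindle proteins were at least 2-fold higher, with a median of 2.06. None of 19 folding genes was, with a median of 0.20, while 2.84% of all genes tested in this pair were. Ttc5 was at -0.44 (-0.74 to -0.16) there. Of 15 further tubulin and stathmin genes, only Tubb2b and Tubd1 had enough UMIs on control day 2, at 0.45 and 1.90, the latter resting on 3 UMIs in naive (0.31 to 4.20). In A20 cKO, Tubb2b was at -0.84, beside -0.80 for its near-copy Tubb2a. The 7 neuron markers, which include Stmn2 and Stmn3, summed to 5.55, 2.35, 4.55 and 7.82 CPM over the control series. Over the A20 cKO series they summed to 6.50, 17.2, 14.2 and 15.7 CPM. The ranges overlapped only through control day 3, which lay above naive A20 cKO.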

How the data were processed

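For 8 libraries, 1 per group, the authors deposited sparse matrices of unnormalized UMI counts by gene and barcode. Cell Ranger 2.1.1 and mm10 are named in the submitters' processing notes. The labels give a v3.1 kit and the study's methods another version. YFP-positive cells were sorted with a doublet gate, and no doublet caller was run here.

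UMIs were summed over kept cells and divided by the summed total (CPM, per 1000000). Intervals at the 95% level were exact Poisson for CPM, Clopper-Pearson for shares and exact conditional binomial for ratios, and cover counting error only. Shares of cells used cells thinned to 2000 UMIs, 935 shallower cells being left out. A gene was called at 2-fold if both sums together held at least 100 UMIs. Since groups had 1 library, no test between groups was made. All 9 members are named. From each list at most the 3 highest and 3 lowest genes could be named, and the 5 nearest genes for likeness. Members, classes and lists were chosen with earlier results of these data known. Alternatives were the cell filter, the scaling, a mean over cells, a microglia gate, leaving out deep cells or shared barcodes, and the class definition. Scripts ran in Python 3.11.15 with numpy 2.4.6, scipy 1.17.1 and matplotlib 3.10.9, and the ratios were tested on simulated data. Of the columns with values per sample, all were used.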

Additional observations from a re-analysis of the deposited data

Results flagged for a closer look

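Results were looked at again where a gene moved in opposite directions after injury in the 2 genotypes, with counting intervals clear of 0 on both sides. Tuba1a on day 1 against naive was at a log2 ratio of 0.99 (0.81 to 1.17) in control and -0.51 (-0.71 to -0.32) in A20 cKO, a difference of 1.50. Tuba1a on day 2 was at 0.38 (0.21 to 0.56) in control and -0.63 (-0.84 to -0.44) in A20 cKO, a difference of 1.02. Tubb2a on day 1 was at 0.31 (0.10 to 0.52) in control and -0.41 (-0.64 to -0.18) in A20 cKO, a difference of 0.72. With 1 library per group these differences were not tested.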

How the results depend on the processing

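Of 73 recomputed values for the 7 main results, 63 kept their size (counts within 1.5 times, the ratio within its interval). The count of 2 members higher on A20 cKO day 2 became 1 with no cell filter, with a mean of single-cell CPM and without the 5% deepest cells, since Tuba1c lay at the threshold. The count of 1 member higher inside than outside the Mki67/Top2a+ class on control day 2 became 0 with a mean of single-cell CPM, without the 5% deepest cells and with the class set on thinned cells, and 3 (Stmn1, Tuba1b and Tuba1c) where positive cells needed at least 2 UMIs. On A20 cKO day 2 the count of 4 became 2 (Stmn1 and Tubb4b) with a class of any core cycle UMI. With control day 1 as reference, the count of 6 on control day 2 became 1 and the Stmn1 log2 ratio outside the class, 3.43, became 2.66. The thinned class and this reference were chosen after seeing the data. Of 648 recomputed log2 ratios of single members, 619 stayed within their intervals, 630 on the same side of the 2-fold threshold, and no ratio past it changed sign. Leaving out the 5% deepest cells moved 15 of 81 ratios, at most by 0.68. Depth limited Tubb6, Tubg1 and Tuba1c in the smaller classes. No paired analysis was possible because each group had 1 library and the labels carry no replicate numbers.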
